A study of Homo sapiens with 6 samples.

Results

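The aryl hydrocarbon receptor (AHR), its partner ARNT, its repressor AHRR and the classical target genes TIPARP, CYP1A1, CYP1A2, CYP1B1 and ALDH3A1 were followed in MDA-MB-231 cells exposed to nitidine chloride (NCD), a plant alkaloid. These 8 genes were matched by symbol among the 63241 Ensembl genes of the count data. The set was chosen by pathway membership with the fold changes of NCD against DMSO in these same libraries known, so the values of its members are given as a description and without p-values. MDA-MB-231, labelled wild type, is an established line of human triple-negative breast cancer cells. Cells received 5 μM NCD or 0.1% DMSO, the solvent control, for 24 h, and each of these 2 groups had 3 libraries of total RNA. For NCD replicates 2 and 3 the description text carries a different cell line number, while the cell line field reads MDA-MB-231. The labels do not say whether the 3 libraries of a group came from separate cultures, so the errors measure only the spread between these libraries.

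AHR is a ligand-activated transcription factor of the basic helix-loop-helix PAS family. It waits in the cytosol with HSP90 and other chaperones, moves to the nucleus when a planar aromatic ligand binds, pairs with ARNT and occupies DNA elements with the core GCGTG. CYP1A1, CYP1A2 and CYP1B1 encode cytochrome P450 monooxygenases that oxidize such ligands, ALDH3A1 encodes an aldehyde dehydrogenase, and AHRR and TIPARP (an ADP-ribosyltransferase, also called PARP7) encode feedback inhibitors of the receptor.

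The 6 libraries held 18223594 to 21629653 counts. They carried the transcripts expected from the label, since 6 of 6 markers of the line (VIM, CD44, KRT18, EGFR, CAV1 and LGALS1) were detected, with a summed level of 5981 to 6392 CPM with DMSO and 4152 to 4620 CPM with NCD. The 5 luminal genes ESR1, PGR, FOXA1, GATA3 and CDH1 together reached 6.27 to 6.91 CPM with DMSO and 8.91 to 9.57 CPM with NCD. Markers of blood, endothelial and liver cells (PTPRC, CD3E, PECAM1 and ALB) together reached 0.679 to 0.767 CPM with DMSO and 0.393 to 1.03 CPM with NCD, and PTPRC and CD3E had at most 1 count in any library. CPM here means counts scaled to a common library size corrected by TMM, a method that centres the bulk of genes. Mitochondrially encoded mRNAs took 5.75% to 6.06% of the counts with DMSO and 3.96% to 4.03% with NCD. The part of these shifts in the results below was not tested. Since RNA was read from whole cultures, a change in every cell and a change in a fraction of the cells cannot be told apart.

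RefSeq promoters (250 bases before to 50 after a transcription start, GRCh38.p14) were listed for 6 of the 8 members. The first 2 sequences are shown because CYP1A1 and CYP1A2 are neighbours on chromosome 15 with very different levels in these libraries, and the last because TIPARP is the most abundant target of the set. Capitals mark the AHR core GCGTG on either strand (CACGC when read on the reverse strand).
CYP1A1: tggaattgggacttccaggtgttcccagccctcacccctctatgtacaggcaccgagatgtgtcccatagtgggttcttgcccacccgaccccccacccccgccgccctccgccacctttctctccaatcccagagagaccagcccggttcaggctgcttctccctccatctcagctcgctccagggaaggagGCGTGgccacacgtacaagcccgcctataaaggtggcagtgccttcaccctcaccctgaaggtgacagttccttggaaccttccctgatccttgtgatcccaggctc
CYP1A2: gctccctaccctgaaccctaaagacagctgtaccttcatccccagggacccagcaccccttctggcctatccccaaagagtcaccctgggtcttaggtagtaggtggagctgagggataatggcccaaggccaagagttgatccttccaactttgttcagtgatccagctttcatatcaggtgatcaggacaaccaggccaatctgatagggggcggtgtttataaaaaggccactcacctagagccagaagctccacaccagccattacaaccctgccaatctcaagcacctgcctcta
TIPARP: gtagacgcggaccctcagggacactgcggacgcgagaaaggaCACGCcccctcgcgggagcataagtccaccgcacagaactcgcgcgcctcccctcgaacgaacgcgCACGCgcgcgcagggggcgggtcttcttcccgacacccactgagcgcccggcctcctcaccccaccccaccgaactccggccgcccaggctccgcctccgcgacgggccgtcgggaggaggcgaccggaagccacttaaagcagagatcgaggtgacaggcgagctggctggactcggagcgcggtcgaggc
The CYP1A1 window (chr15:74725479-74725778, minus strand) held 1 core, at bases -57 to -53 from the start site. The CYP1A2 window (chr15:74748595-74748894, plus strand) held 0, and the TIPARP window (chr3:156674340-156674639, plus strand) held 2, both on the reverse strand, at -208 to -204 and at -142 to -138. The other promoters listed for TIPARP held 0. Of the other members, ARNT held 0 and AHR 1 core, and AHRR held 1 in the first and 2 in the second of its listed promoters. The longer form TNGCGTG (any base at N, both strands, and containing the core) was found once, in the first AHRR promoter. Over 27305 genes, with 1 promoter each, 36.3% held the core and 5.51% held the longer form. These matches describe letters within 300 bases, and the binding of AHR was not measured.

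CYP1A1 had by far the largest log2 fold change of the set. The gene (ENSG00000140465; chromosome 15, 74719542 to 74725610, minus strand, GENCODE release 29 on GRCh38) encodes the P450 enzyme most used as a readout of AHR activity. Counts were 54, 62 and 71 for the DMSO libraries and 909, 710 and 725 for the NCD libraries. In CPM these were 3.25, 3.51 and 3.89 with DMSO and 39.7, 36.7 and 33.8 with NCD, so that the lowest NCD library lay far above the highest DMSO library. Means were 3.55 ± 0.321 and 36.8 ± 2.96 CPM (SD, n = 3 each), a 10.3-fold difference and a log2 fold change of 3.37 (standard error 0.11). It ranked 14 by log2 fold change among 11050 tested genes whose mean reached 5 CPM. None of its 50-base stretches occurred in the transcripts of another gene, and no other annotated gene overlaps it.

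CYP1B1 (ENSG00000138061; chromosome 2, 38066973 to 38109902, minus strand), the extrahepatic member of the same enzyme family that also hydroxylates estradiol, was higher as well. Its counts were 242, 367 and 312 in DMSO and 1080, 905 and 1224 in NCD libraries. Its levels were 14.6, 20.8 and 17.1 CPM with DMSO and 47.2, 46.8 and 57.1 CPM with NCD, again without overlap. Means were 17.5 ± 3.11 and 50.4 ± 5.81 CPM (SD, n = 3 each), a 2.88-fold difference (log2 fold change 1.52, standard error 0.14). The genes around it moved the other way. CYP1B1-AS1, a noncoding RNA on the opposite strand, went from 7.97 ± 0.962 to 3.20 ± 0.775 CPM (SD, n = 3; log2 fold change -1.33, standard error 0.20), with an adjusted p = 0.000274 from edgeR. RMDN2, whose end overlaps that of CYP1B1 on the opposite strand, went from 6.90 ± 0.500 to 2.93 ± 0.690 CPM (SD, n = 3; log2 fold change -1.23, standard error 0.18), with an adjusted p = 0.00027 from edgeR. The strandedness of the counting is not stated, and without strand the reads of CYP1B1 and of these partners cannot be told apart where they overlap.

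The classical AHR targets CYP1A2 and ALDH3A1 were at or near 0. CYP1A2 (ENSG00000140505; chromosome 15, 74748844 to 74756202, plus strand) was counted 0, 1 and 0 times in the DMSO libraries and 0, 2 and 2 times in the NCD libraries. The ratio of NCD to DMSO was 3.30 with an exact 95% counting interval of 0.326 to 162, and this depth could not show a difference. ALDH3A1 (ENSG00000108602; chromosome 17, 19737984 to 19748943, minus strand) was counted 0, 0 and 1 times against 0, 2 and 1 times, a ratio of 2.47 (exact 95% counting interval 0.199 to 129.9). Both groups overlapped for both genes, and neither passed the filter on low counts. The CYP1A1 and CYP1A2 transcripts shared 0 stretches of 50 bases, the length at which sharing was checked.

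**Figure D1:**
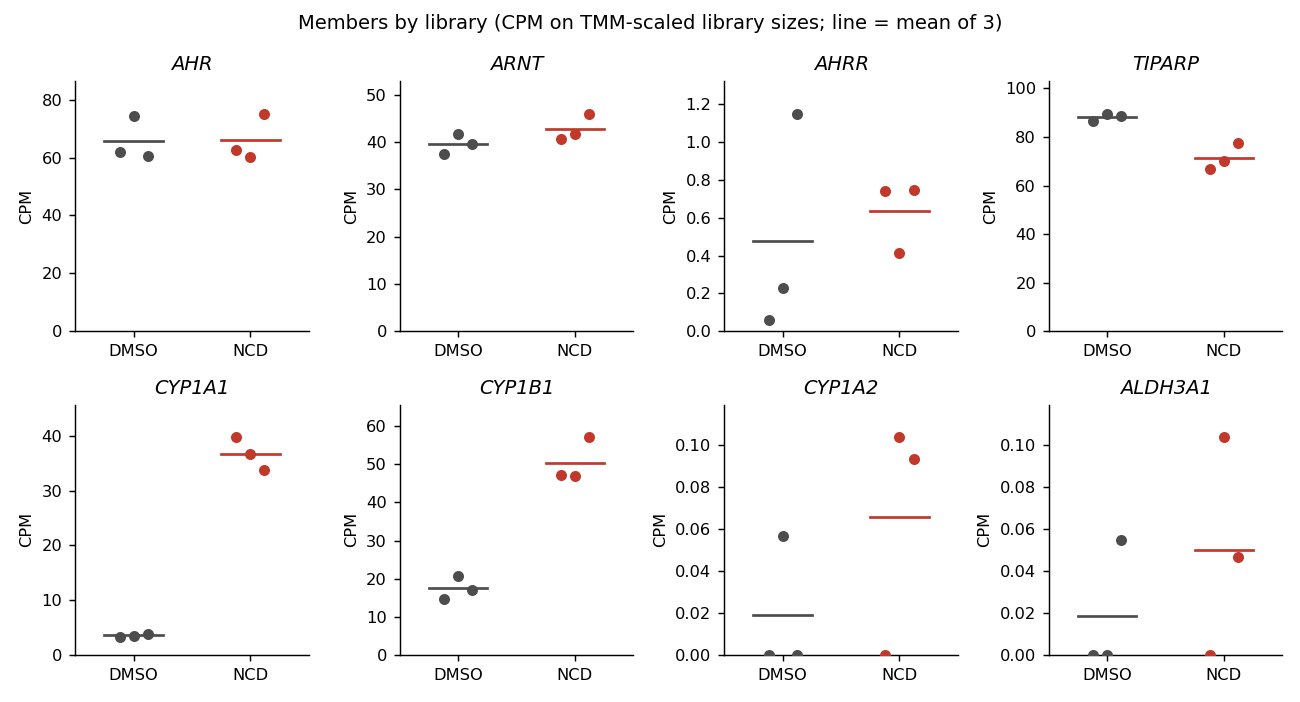
Expression of the 8 members in CPM (y axis, from 0, a separate scale for each gene) in the 3 DMSO and 3 NCD libraries, with points for libraries and lines for means. CYP1A1 and CYP1B1 lie higher in every NCD library, TIPARP lies lower, AHR, ARNT and AHRR overlap, and CYP1A2 and ALDH3A1 stay at no more than 2 counts.

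The receptor and its partner were at nearly the same level in both groups. AHR (ENSG00000106546; chromosome 7, 16916359 to 17346152, plus strand) had 61.8, 74.5 and 60.7 CPM with DMSO and 62.5, 60.1 and 75.2 CPM with NCD. The ranges lay over each other, with 1 high library in each group. The log2 fold change was 0.01 (standard error 0.11), with a 95% interval of -0.24 to 0.25, and its sign changed between settings. GENCODE extends AHR over 429.8 kb, against 47.5 kb in RefSeq, and 28.9% of its 50-base stretches also occur in transcripts of other genes. Nearly all of these are in AC019117.2, a gene on the same strand, which had at most 2.2 counts in any library. ARNT (ENSG00000143437; chromosome 1, 150809705 to 150876768, minus strand), the shared partner of AHR and of the hypoxia factors, had 37.5, 41.6 and 39.6 CPM with DMSO and 40.7, 41.6 and 46.0 CPM with NCD. These ranges met as well, and the log2 fold change was 0.11 (standard error 0.08; 95% interval -0.07 to 0.29), against 0.31 with libraries scaled by their totals.

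Neither feedback inhibitor was past the thresholds that CYP1A1 passed. TIPARP (ENSG00000163659; chromosome 3, 156673235 to 156706770, plus strand) had 86.7, 89.6 and 88.5 CPM with DMSO and 66.9, 70.2 and 77.7 CPM with NCD. Every NCD library was below every DMSO library, with means of 88.3 ± 1.47 and 71.6 ± 5.55 CPM (SD, n = 3 each). Its log2 fold change of -0.30 (standard error 0.07) was short of the fold threshold of 1 used for calls, and it was -0.10 when libraries were scaled by their totals, a scaling that moves the median of all tested genes from 0.04 to 0.23. TIPARP-AS1, which starts from the same promoter region on the other strand, had 1.39 ± 0.581 CPM with DMSO and 1.06 ± 0.350 CPM with NCD (SD, n = 3).

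AHRR (ENSG00000063438; chromosome 5, 304176 to 438291, plus strand), which competes with AHR for ARNT, was barely expressed. It had 1.29, 3.84 and 21 counts with DMSO and 17, 8 and 16 counts with NCD. DMSO replicate 3 alone exceeded every NCD library, while the other DMSO libraries lay below all of them. The log2 fold change was 0.38 (standard error 0.72; 95% interval -1.26 to 2.02). It was 2.06 and past both thresholds without DMSO replicate 3, and -0.14 without DMSO replicate 1. PDCD6 overlaps AHRR on the same strand, shares 2.49% of its 50-base stretches and had up to 1254 counts, and the AHRR counts of DMSO replicates 1 and 2 are fractional estimates.

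In all, 6 of the 8 members passed the low-count filter, and 2 of them, CYP1A1 and CYP1B1, were past both thresholds of edgeR's quasi-likelihood fit over 15295 genes (Benjamini-Hochberg adjusted p under 0.05, log2 fold change beyond 1 in size). Of all tested genes 31.0% were past these thresholds, 13.5% higher and 17.5% lower. On the adjusted p alone 3 members passed, CYP1A1, CYP1B1 and TIPARP, beside 69.3% of all tested genes. With library totals TIPARP no longer passed on the adjusted p and ARNT did. Libraries did not overlap for 3 members, beside 72.6% of all tested genes, namely 2 upward (37.2% of all) and 1 downward (35.3% of all). These shares are set here only for reference, because the same comparison entered the choice of the set. With libraries scaled by their totals 2793 genes were higher and 2181 lower, against 2067 higher and 2669 lower with TMM, and CYP1A1 and CYP1B1 remained the 2 members past both thresholds.

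In these libraries the fold change of a gene went with its span, which differs widely among the members. CYP1A1 and CYP1B1 span 5.99 kb and 8.64 kb in RefSeq. The 1376 tested genes of their decile of span (4.54 to 8.73 kb) had a median log2 fold change of 0.40. GENCODE extends CYP1B1 over 42.9 kb, a length within the decile of 40.9 to 57.8 kb, whose median was -0.06. TIPARP, with 32.2 kb, lay in a decile with a median of 0.14 and was itself lower. AHR, with 47.5 kb, lay in a decile with a median of -0.06. ARNT, with 66.9 kb, stood above the median of -0.38 of its decile, and AHRR, with 116.6 kb, above a median of -0.98. How much of any member's value goes with span was not tested.

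**Figure D2:**
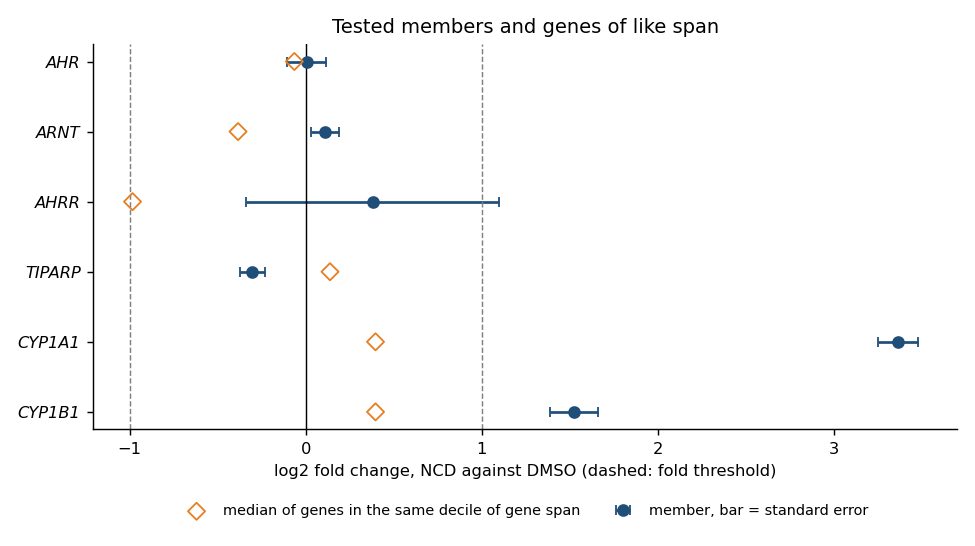
Log2 fold change of the 6 tested members (x axis, NCD against DMSO; circles with bars of 1 standard error), beside the median of all tested genes in the same decile of RefSeq gene span (diamonds). CYP1A1 at 3.37 and CYP1B1 at 1.52 lie to the right of the median of 0.40 of their decile, and TIPARP at -0.30 lies to the left of its decile's 0.14.

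Levels were compared between genes per kilobase of merged exons (RPKM), since longer transcripts yield more reads. With DMSO the order was TIPARP at 17.5 ± 0.290 RPKM, AHR at 8.13 (7.51 to 9.22), ARNT at 6.08 ± 0.315, CYP1B1 at 2.91 ± 0.517 and CYP1A1 at 1.03 ± 0.0935 (SD or range, n = 3 each), and the libraries of neighbouring genes did not overlap. AHRR, CYP1A2 and ALDH3A1 followed at no more than 0.150 RPKM in any library and could not be ordered, as their ranges overlapped. With NCD, TIPARP remained highest at 14.2 ± 1.10 RPKM. CYP1A1 moved from the fifth to the second place at 10.7 ± 0.861 RPKM, ahead of CYP1B1 at 8.37 ± 0.966 and AHR at 8.16 ± 1.00 RPKM, which overlapped each other, and of ARNT at 6.57 ± 0.436 RPKM (SD, n = 3 each). The NCD libraries of CYP1A1 and CYP1B1 did not overlap.

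**Figure D3:**
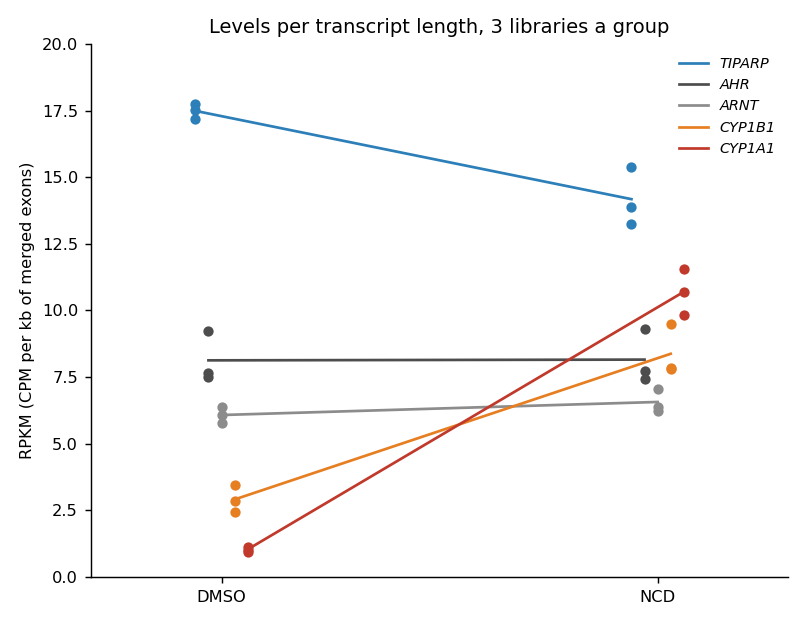
Level per transcript length in RPKM (y axis, from 0) of the 5 members with the highest levels in the 3 DMSO and 3 NCD libraries, with points for libraries and lines joining means. CYP1A1 goes from the lowest of the 5, at 1.03 RPKM, to the second highest, at 10.7 RPKM, while TIPARP stays highest.

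Ratios within a library do not depend on how libraries are scaled. Per length, CYP1A1 stood at 0.391, 0.296 and 0.398 of CYP1B1 in the DMSO libraries. In the NCD libraries it stood at 1.47, 1.37 and 1.04 of CYP1B1, above it in each. These ratios rest on merged exon lengths of 3.435 kb for CYP1A1 and 6.014 kb for CYP1B1. Undivided by length, the CYP1B1 counts remained the higher in every NCD library (1080, 905 and 1224 against 909, 710 and 725). The lowest of the NCD ratios was that of replicate 3, which also had the highest CYP1B1 and the lowest CYP1A1 level of its group. The ratio of CYP1B1 to AHR was 0.357 ± 0.0345 with DMSO and 1.03 ± 0.0175 with NCD (SD, n = 3), and AHR and CYP1B1 were both highest in NCD replicate 3. AHR to ARNT was 1.34 ± 0.104 with DMSO and 1.24 ± 0.0770 with NCD (SD, n = 3), with overlapping ranges. TIPARP to AHR was 2.17 ± 0.216 with DMSO and 1.75 ± 0.111 with NCD (SD, n = 3), and here every NCD ratio lay below every DMSO ratio.

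The genes whose pattern over the 6 libraries was most like that of AHR were XIAP, NFE2L2 and TMOD2, among 11018 candidate genes with a mean of 5 CPM or more, a floor far below AHR and TIPARP. Their Pearson correlations of log2 CPM with AHR were 0.989, 0.986 and 0.977. NFE2L2, which encodes the antioxidant regulator NRF2, had 130.1 ± 16.2 CPM with DMSO and 128.6 ± 13.0 CPM with NCD (SD, n = 3). For TIPARP the 3 genes were LRRC8B, PTGR2 and LRRC40, with correlations of 0.998, 0.997 and 0.997. These values share the same 6 libraries, their depth and their groups, and are given as a description.

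Other genes of the pathway were counted in 6 lists written by hand, of which some share genes. The lists were written with earlier results of these data known. Their counts, shares and adjusted p-values are therefore given as a description only. Of all tested genes 13.5% were called higher and 17.5% lower. The first held 29 genes for proteins that hold AHR in the cytosol, degrade it, act as coactivators or corepressors, or are otherwise linked to it. SRC, XPO1, SP1, RELA, RELB and ESR1 are of the last kind. Of 28 tested, 1 rose and 7 fell (28.6% called, beside 31.0% of all tested genes), with a median log2 fold change of -0.33 against 0.04 for all tested genes. With library totals 2 rose and 4 fell. The falls with the smallest p were those of the nuclear receptor coactivators NCOA1, from 20.1 ± 2.81 to 2.51 ± 0.121 CPM (SD, n = 3; log2 fold change -3.00, edgeR adjusted p = 1.97e-07), and NCOA2, from 17.0 ± 1.45 to 1.87 ± 0.408 CPM (SD, n = 3; log2 fold change -3.17, edgeR adjusted p = 3.2e-07), and of the corepressor NCOR1 (log2 fold change -2.17). These 3 genes span 186.4 to 346.7 kb, in the longest decile of span, whose median log2 fold change was -2.19. RELB, an NF-kB subunit that can bind AHR, was the gene that rose, from 5.79 ± 0.646 to 18.3 ± 2.10 CPM (SD, n = 3; log2 fold change 1.65, edgeR adjusted p = 4.25e-06). The HSP90 gene HSP90AB1, chosen after its value was seen, had a log2 fold change of -0.49, and HSP90AA1, chosen likewise, of 0.02 (standard error 0.14).

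Other bHLH-PAS factors, some of which compete for ARNT, made the second list. Of 13 genes 9 were tested, and 1 rose and 4 fell (55.6% called, beside 31.0% of all tested genes). The median log2 fold change was -0.27. HIF1A, the oxygen-regulated partner of ARNT, fell from 317.4 ± 32.7 to 107.1 ± 26.6 CPM (SD, n = 3; log2 fold change -1.57, edgeR adjusted p = 2.13e-05). It spans 52.7 kb, in a decile with a median of -0.06. The clock genes NPAS2 (log2 fold change -2.79; 178.1 kb, in the longest decile) and BMAL2 (log2 fold change -1.72) fell too. BMAL2 spans 92.5 kb, in a decile with a median of -0.98. NPAS1 rose from 0.687 ± 0.0334 to 3.64 ± 0.193 CPM (SD, n = 3; log2 fold change 2.40, edgeR adjusted p = 7.32e-06). EPAS1, the other abundant hypoxia factor, named after its value was seen, had a log2 fold change of 0.64 (standard error 0.08) and was not called.

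The next list held 38 genes outside the set that have been described as responding to AHR in some tissue, many of which also answer to other regulators. Of 30 tested, 12 rose and 5 fell (56.7% called, beside 31.0% of all tested genes), and the median log2 fold change was 0.63. With library totals 14 rose and 3 fell. Under the filter of 10 or more counts per library 25 were tested, of which 8 rose and 4 fell. The cytokine genes IL6 and IL24 rose with log2 fold changes of 3.34 and 1.97, IL6 from 4.32 ± 0.625 to 43.7 ± 2.61 CPM (SD, n = 3; edgeR adjusted p = 4.23e-08), and TNFAIP2 rose from 48.6 ± 2.23 to 137.6 ± 4.68 CPM (SD, n = 3). IL1B fell from 33.8 ± 0.901 to 15.2 ± 0.741 CPM (SD, n = 3; log2 fold change -1.15, and -0.95 with library totals, short of the fold threshold). SOS1 and FLG fell with -1.29 and -2.05. SOS1 spans 143.3 kb, in a decile with a median of -0.98. IL1B (7.03 kb) and FLG (23.1 kb) lay in deciles with medians of 0.40 and 0.31. Named after their values were seen, NQO1, the quinone reductase of the classical AHR battery, was among the genes not called, with 1055 ± 85.3 CPM with DMSO and 915.5 ± 32.6 CPM with NCD (SD, n = 3; log2 fold change -0.20). CYP2S1, a further P450 gene described as dioxin-inducible, had 1.83 ± 0.559 CPM with DMSO and 5.64 ± 0.689 CPM with NCD (SD, n = 3; log2 fold change 1.63).

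Enzymes and transporters on the routes of tryptophan and its AHR ligands, for supply and for consumption, made a list of 22. Its counts therefore do not measure supply alone. Of 14 tested, 4 rose and 3 fell, so that 7 of 14 were called, beside 31.0% of all tested genes, and the median log2 fold change was 0.51. With library totals 5 rose and 2 fell, and under the filter of 10 or more counts per library 2 rose and 3 fell. Of the enzymes that start these routes, named after their values were seen, IDO1, IDO2 and IL4I1 were below the filter, while TDO2 was called higher at a low level, with 0.561 ± 0.261 CPM with DMSO and 1.38 ± 0.288 CPM with NCD (SD, n = 3; 2.46-fold). SLC3A2, the heavy chain of the exchanger that imports tryptophan, rose from 232.7 ± 1.37 to 708.1 ± 41.7 CPM (SD, n = 3; 3.04-fold, edgeR adjusted p = 7.29e-08). SLC7A5, the light chain of the same exchanger, named after its value was seen, was not called (1.56-fold, log2 fold change 0.64, standard error 0.06). WARS1, which charges tRNA with tryptophan, rose with a log2 fold change of 1.39. HAAO also rose, from 0.116 ± 0.0631 to 0.728 ± 0.142 CPM (SD, n = 3), a very low level. KYNU and KYAT1, which consume kynurenine, fell with log2 fold changes of -1.38 and -1.09 (KYAT1 -0.89 with library totals and -0.99 without NCD replicate 1, both short of the fold threshold). The amino acid transporter SLC36A4 fell with -1.34. KYNU spans 178.2 kb, in the longest decile with a median of -2.19. KYAT1 (49.6 kb) and SLC36A4 (53.8 kb) lay in a decile with a median of -0.06.

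Relatives of TIPARP and the hydrolases that remove ADP-ribose were all tested, 17 genes, of which 3 rose and 4 fell. This was 41.2% called, beside 31.0% of all tested genes, with a median log2 fold change of 0.27. With library totals 5 rose and 3 fell. PARP10 rose from 7.02 ± 0.651 to 26.9 ± 0.937 CPM (SD, n = 3; log2 fold change 1.94, edgeR adjusted p = 3.15e-07), and PARP14 and the hydrolase OARD1 rose with 1.42 and 1.10. PARP8, PARP4 and the hydrolase PARG fell, with log2 fold changes of -1.95, -1.43 and -1.19 (PARG -0.99 with library totals, short of the fold threshold). PARP8 spans 180.6 kb, in the longest decile with a median of -2.19. PARP4 (91.8 kb) and PARG (123.7 kb) lay in a decile with a median of -0.98. Electron donors of P450 enzymes and related enzymes of xenobiotic metabolism formed the last list, of 34 genes. Of 27 tested, 7 rose and 0 fell (25.9% called, beside 31.0% of all tested genes), with a median log2 fold change of 0.38. Among the rises were the P450 genes CYP2U1 (log2 fold change 2.05) and CYP4V2 (log2 fold change 1.85). CYB5R1, a cytochrome b5 reductase, rose with a log2 fold change of 1.02, which ran from 0.95 to 1.05 over the fits lacking 1 library and was below the fold threshold in 3 of these 6 fits, those without DMSO replicate 1, DMSO replicate 3 or NCD replicate 1.

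**Figure D4:**
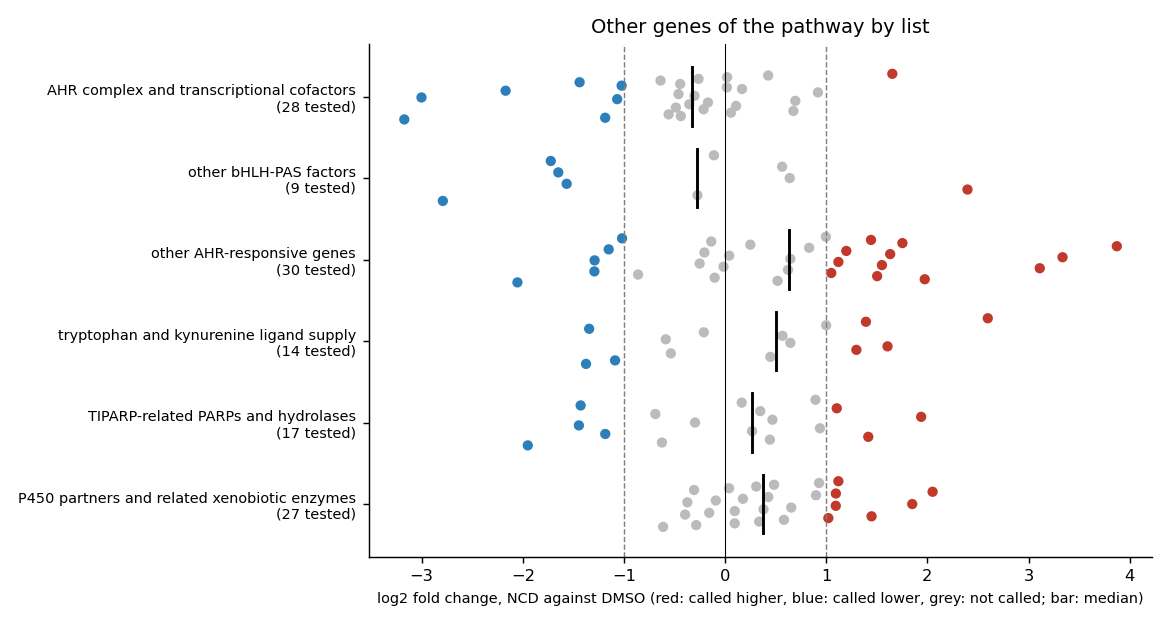
Log2 fold change of every tested gene of the 6 lists (x axis, NCD against DMSO), 1 point per gene, red for genes called higher, blue for genes called lower and grey for the rest, with a bar at each list's median. Medians run from -0.33 for the complex and cofactors to 0.63 for the other AHR-responsive genes. The P450 partners hold 0 genes called lower, beside 17.5% of all tested genes.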

How the data were processed

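RNA of MDA-MB-231 cells (3 DMSO and 3 NCD libraries) was sequenced, and the authors deposited expected counts per Ensembl gene, which they made by alignment with HISAT2 and estimation with RSEM, without normalization. The submitters' processing notes name GRCh38. Tool versions, annotation release and strandedness are not given in the sources used here. In each library 25 lines without gene or count were skipped.

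The 8 members and the 6 lists were chosen with earlier results of these data known. Expected counts were rounded and tested with edgeR 4.0.16 in R 4.3.3 (filterByExpr, TMM, glmQLFit and glmQLFTest, Benjamini-Hochberg adjustment over all 15295 tested genes). Standard errors were derived from each gene's F statistic and log2 fold change. Calls used an adjusted p below 0.05 and, after the authors' methods, an absolute log2 fold change above 1. The script was tested on simulated data with few changed genes and a fixed dispersion. That setting differs from these libraries, so it does not measure error rates in them. Named genes are the 8 members, the 3 rises and 3 falls with the smallest p of each list, genes overlapping a member, and the 3 genes best correlated with AHR and with TIPARP. Exceptions are marked where they occur. Symbols were found for 62666 of 63241 identifiers. Spans and promoters came from RefSeq (GRCh38.p14) and coordinates, exon lengths and transcripts from GENCODE release 29. Libraries of a group differed beyond sampling noise, with a chi-square per degree of freedom of 2.09 to 16.86 over pairs. NCD replicates 1 and 2 gave 2.09, while NCD replicate 3 gave 15.85 against replicate 1 and 14.15 against replicate 2. DMSO replicates 1 and 2 gave 16.86. Counting intervals are exact and cover counting error only. Alternatives were DESeq2 1.42.0, limma-voom (limma 3.58.1), library totals, other filters, a prior count of 2, no fold threshold, a replicate block and each library left out.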

Additional observations from a re-analysis of the deposited data

How the results depend on the processing

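CYP1A1 and CYP1B1 were past both thresholds in every fit run, and their log2 fold changes ranged from 3.28 to 3.41 and from 1.38 to 1.66 when each library was left out. Under the same omissions AHR ranged from -0.12 to 0.10, ARNT from 0.04 to 0.14, TIPARP from -0.38 to -0.28 and AHRR from -0.14 to 2.06, and the number of members past both thresholds ranged from 2 to 3. Library totals moved AHR to 0.20, ARNT to 0.31, TIPARP to -0.10 and CYP1A1 to 3.56, by construction of that scaling, and AHRR moved to 2.06 without DMSO replicate 3. The near-zero value of AHR was -0.02 with DESeq2 and -0.01 under the filter of 10 or more counts per library, which removes AHRR.

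Without a fold threshold 10602 genes were called, 5393 higher and 5209 lower, and the lists of complex and cofactors, bHLH-PAS factors, ligand supply, TIPARP relatives and P450 partners had 20, 8, 13, 14 and 21 calls, by construction. The total of calls in each list stayed within 1.5 times that reported under the other settings, but the split did not. With library totals the cofactors had 2 rises and 4 falls, AHR-responsive genes 14 and 3, ligand supply 5 and 2 and TIPARP relatives 5 and 3. With 10 or more counts per library AHR-responsive genes had 8 and 4 and ligand supply 2 and 3. Leaving out each library gave 4653 to 5049 called genes, and 7 to 9 for the complex and cofactors, 5 for bHLH-PAS factors, 14 to 18 for AHR-responsive genes, 6 to 8 for ligand supply, 7 to 8 for TIPARP relatives and 5 to 7 for P450 partners. IL1B (-0.95), KYAT1 (-0.89) and PARG (-0.99) fell short of the fold threshold with library totals, and KYAT1 (-0.99) without NCD replicate 1.

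Same-numbered libraries showed no clear shared deviation from their groups, with correlations of 0.216, -0.185 and 0.0226. With 3 libraries a group, these values cannot decide whether cultures were handled in pairs. A replicate block in the fit gave 4723 called genes, and log2 fold changes were 3.36 for CYP1A1, 1.53 for CYP1B1 and -0.31 for TIPARP. Depth limits CYP1A2 and ALDH3A1, which no setting could measure, and AHRR.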
